A study of Homo sapiens with 12 samples.

Results

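The genes described here are the ligands, receptors, inhibitors and signalling components of the Wnt pathway, followed through leukaemia cells given the nucleoside analogue Ara-C (cytarabine) with and without human stromal cells. Members were all probes whose gene symbol in the scanner tables starts with WNT or FZD followed by a digit, or is one of a fixed list of pathway symbols. The rule found 104 of the 48800 probes of the HumanHT-12 v3 array, for 66 of 25158 gene symbols. No measured value entered the rule.

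All 12 arrays carried RNA from cells labelled Reh, an established line from a B-cell precursor acute lymphoblastic leukaemia. There were 4 groups of 3 arrays, which the labels call independent triplicates: Ara-C for 48 hours with HS5 stromal cells (Ara-C+HS5), Ara-C for 48 hours with HS stromal cells (Ara-C+HS), Ara-C for 48 hours alone (Ara-C), and cells with neither drug nor stroma (untreated). HS-5 is a human marrow stromal line. The labels describe HS no further and do not state the Ara-C dose or how stromal cells were separated from the leukaemia cells at harvest. Both stroma groups also received Ara-C, so stroma without the drug is not among the groups. The study's title names the Wnt pathway in the protection of leukaemia cells by stroma, and the comparisons below give the array values of that pathway.

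Wnt proteins are secreted lipid-modified ligands that bind Frizzled receptors together with the co-receptors LRP5 or LRP6. Without a ligand, a complex of Axin, APC, casein kinase 1 and GSK3 marks beta-catenin for breakdown. With a ligand, Dishevelled and Axin are drawn to the receptors, beta-catenin accumulates, and TCF/LEF factors switch on targets, among them the pathway's own brakes AXIN2, NKD1, ZNRF3 and RNF43. In the marrow, Wnt signals are known to act on early lymphoid cells and their niche.

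Because TCF/LEF factors read a short DNA motif, the promoters of the members were searched for CTTTGAA or CTTTGAT on either strand in a window of 300 bases, most of it upstream of the gene start (RefSeq, GRCh38.p14). The table held 46 of the 66 member genes. The motif was in 1 of those 46 promoters, that of DKK1, and in 0 of the 19 that belong to genes tested below, against 6.86% of 35116 promoters of the same length. Members' promoters were richer in G and C, with a median of 72.7% against 58.7% over all promoters. The following 3 are shown because AXIN1 and NKD2 both fell with Ara-C and because DKK1, a secreted antagonist that was detected on no array, is the member with the motif (in capitals). They were chosen after these values were seen.
AXIN1 (chr16:352674-352973, minus strand): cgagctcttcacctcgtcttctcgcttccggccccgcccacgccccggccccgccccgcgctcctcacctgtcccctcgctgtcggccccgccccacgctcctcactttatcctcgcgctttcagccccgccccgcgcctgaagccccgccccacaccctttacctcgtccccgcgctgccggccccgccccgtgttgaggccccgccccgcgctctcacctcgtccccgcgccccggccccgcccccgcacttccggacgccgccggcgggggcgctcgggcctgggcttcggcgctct
NKD2 (chr5:1008552-1008851, plus strand): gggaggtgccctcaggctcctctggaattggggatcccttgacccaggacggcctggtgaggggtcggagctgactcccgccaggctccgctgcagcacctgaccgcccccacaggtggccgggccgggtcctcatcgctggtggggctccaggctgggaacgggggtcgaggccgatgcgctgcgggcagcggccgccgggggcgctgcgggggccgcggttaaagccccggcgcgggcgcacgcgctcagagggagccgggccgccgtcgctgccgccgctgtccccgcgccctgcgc
DKK1 (chr10:52314031-52314330, plus strand): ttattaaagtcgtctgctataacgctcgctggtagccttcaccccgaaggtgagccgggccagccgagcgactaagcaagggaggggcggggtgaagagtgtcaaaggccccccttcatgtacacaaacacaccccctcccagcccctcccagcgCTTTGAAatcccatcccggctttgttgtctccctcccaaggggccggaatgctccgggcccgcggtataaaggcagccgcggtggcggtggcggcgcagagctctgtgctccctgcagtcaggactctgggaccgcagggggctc
AXIN1 and NKD2 have GC contents of 78% and 77%. A match or its absence in these windows describes the letters only.

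Each array had between 13064 and 14898 probes with a detection p under 0.01, the scanner's measure of a signal above its negative controls. Arrays of 1 group correlated at 0.991 to 0.993 over the tested probes. The arrays shared a chip, and since a group's arrays sat side by side on it, its position cannot be told apart from its treatment. Cells labelled Reh had CD79A and DNTT on 12 arrays, but PAX5, CD22, VPREB1 and BLNK on none, and the granulocyte gene MPO averaged 14.80 in Ara-C+HS5, 15.04 in Ara-C+HS, 14.98 in Ara-C and 15.32 in untreated cells on the log2 intensity scale. The missing B-lineage genes and the MPO level go against the label, so the cells are called here only by it, and their identity was not tested. Of 28 stroma genes, 21 were on no array, among them COL1A1, COL1A2, COL3A1, DCN and LUM. PDGFRB was detected on 2 Ara-C+HS5, 3 Ara-C+HS, 3 Ara-C and 0 untreated arrays. Of 9 T and NK cell genes, CD3E, CD3G, CD2, CD5 and CD7 were on no array, while CD3D and NKG7 were on 12, CD8A on every array but the untreated ones, and GZMA on every array but those of Ara-C+HS. CD3D averaged 11.97 in Ara-C+HS5, 11.57 in Ara-C+HS, 11.84 in Ara-C and 11.19 in untreated cells.

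Most of the ligand and antagonist side of the pathway was not detected, while most intracellular components were. Of the 66 genes, 33 were detected on no array, 4 on 1 or 2 arrays through their best probe, and 24 on all 12. For testing, a probe had to be detected on at least 3 of the 12 arrays, which kept 39 member probes of 29 genes. That is 37.5% of the member probes, against 30.6% of all probes. Of the 39, 32 were detected on all 12 arrays, 3 on 11 and 4 on 3 to 5. A probe below detection has only an upper bound on its level, so the expression of those genes is not excluded.

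Of 19 Wnt ligands, 3 were kept: WNT3 and WNT16 on 12 arrays and WNT2B on 11. WNT10B passed on 1 Ara-C+HS5 array, and WNT1, WNT2, WNT3A, WNT4, WNT5A, WNT5B, WNT6, WNT7A, WNT7B, WNT8A, WNT8B, WNT9A, WNT9B, WNT10A and WNT11 on none. PORCN, the enzyme that lipid-modifies Wnt proteins before secretion, was detected by neither of its 2 probes. All 9 secreted antagonists, DKK1, DKK2, DKK3, DKK4, SFRP1, SFRP2, SFRP4, SFRP5 and WIF1, were on no array with any of their 15 probes. Among 10 Frizzled genes, FZD2, FZD3, FZD6 and FZD7 were on 12 arrays and FZD1 on 5, with FZD4, FZD5, FZD8, FZD9 and FZD10 on none. LRP5 was on 12 arrays, whereas LRP6 passed on 1 Ara-C+HS array. The alternative Wnt receptors RYK and ROR2 were on 12 arrays and ROR1 on none.

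Of the membrane-bound inhibitors, KREMEN1, KREMEN2 and ZNRF3 were on 12 arrays and RNF43 on none. CTNNB1, which encodes beta-catenin, was on 12 arrays with 3 of its 7 probes, and its partners BCL9, CTNNBIP1 and PYGO2 were on 12, 12 and 11. In the destruction complex, AXIN1, CSNK1A1 and GSK3B were on 12 arrays and GSK3A on 5, and the 1 probe for APC was on none. AXIN2, a widely used target of beta-catenin signalling, passed on 2 of 3 Ara-C+HS arrays and on none of the others, which is under the minimum for a test. Of the Dishevelled genes and their regulators, DVL2, DVL3, CSNK1D, CSNK1E and NKD2 were on 12 arrays and NKD1 on 3, and no single DVL1 probe passed on more than 1. NLK, a kinase that phosphorylates TCF/LEF factors, was on 12.

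**Figure D1:**
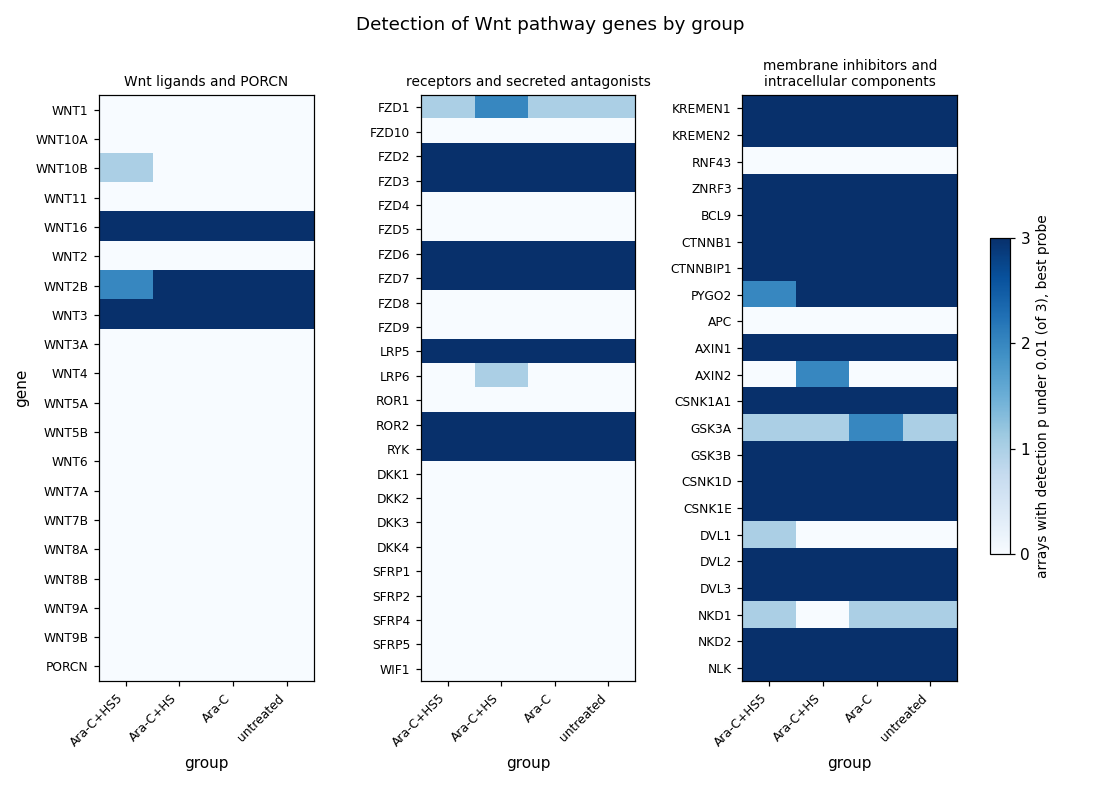
Number of arrays, of 3 per group, on which the best probe of each of the 66 genes had a detection p under 0.01 (colour scale, 0 to 3), with genes in rows and groups in columns. The Wnt ligand panel is empty but for WNT16, WNT2B, WNT3 and 1 WNT10B array, and the secreted antagonists are at 0 throughout, while most genes in the right panel are at 3 in every group.

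Ara-C alone was compared with untreated cells for what 48 hours of drug did. KREMEN2, FZD6 and CSNK1D rose, and NKD2, ZNRF3, AXIN1, LRP5 and WNT16 fell, each by less than 2-fold. Of the 39 member probes, 9 passed (4 higher and 5 lower, 23.1%), against 49.9% of all 14939 tested probes, 23.7% higher and 26.2% lower. The test was limma's moderated test with Benjamini-Hochberg adjustment over all tested probes, at an adjusted p under 0.05, as in every comparison below. The median size of the log2 difference was 0.19 over member probes and 0.33 over all tested probes, and 0 of the 39 changed by 2-fold or more, against 8.98% of all. The direction of the calls depended on the scaling. With arrays shifted to a common median in place of quantile normalization, the median of all tested probes lay at 0.17 for this comparison and not at -0.05, and 16 members passed, 15 higher and 1 lower. WNT16, LRP5, ZNRF3 and AXIN1 then missed the threshold (adjusted p between 0.0682 and 0.70), while KREMEN2 (then at 1.23), FZD6, CSNK1D and NKD2 still passed. In bulk RNA such as this, fewer cells of a type and less RNA per cell cannot be told apart.

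KREMEN2 encodes a membrane receptor for DKK proteins that takes LRP co-receptors off the cell surface. Its probe ILMN_2382290 read 8.30, 8.23 and 8.25 in Ara-C+HS5, 8.83, 8.86 and 8.77 in Ara-C+HS, 8.29, 8.30 and 8.22 in Ara-C, and 7.48, 7.34 and 7.15 in untreated cells (normalized log2 intensity, as for all levels below). The 3 Ara-C+HS arrays were the highest and the 3 untreated arrays the lowest, with no overlap, and the Ara-C+HS5 and Ara-C arrays lay together between them. The level averaged 8.27 ± 0.05 in Ara-C and 7.33 ± 0.16 in untreated cells (SD, n = 3 each), a 1.92-fold rise (log2 difference 0.94, SE 0.09, adjusted p = 3.98e-06, limma). A second probe, ILMN_1761321, was detected on 2 Ara-C arrays and on none of the other groups' and was not tested. It read 5.32, 5.64 and 5.48 in Ara-C+HS5, 4.71, 4.92 and 4.65 in Ara-C+HS, 5.66, 5.80 and 5.48 in Ara-C, and 4.60, 4.76 and 5.0 in untreated cells, so its order among the drug groups was not that of the tested probe. The third probe was on no array.

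FZD6 encodes a Frizzled receptor best known from planar cell polarity, a branch that does not use beta-catenin. It read 7.29, 7.22 and 7.50 in Ara-C+HS5, 6.95, 7.02 and 6.87 in Ara-C+HS, 7.11, 7.04 and 6.72 in Ara-C, and 6.42, 6.16 and 6.51 in untreated cells. All 9 arrays with the drug were above all 3 untreated arrays. The rise with Ara-C alone was 1.51-fold (log2 difference 0.59, SE 0.13, adjusted p = 0.00179, limma). CSNK1D encodes casein kinase 1 delta, which phosphorylates Dishevelled. Its probe ILMN_1720708 read 10.35, 10.34 and 10.30 in Ara-C+HS5, 10.16, 10.11 and 10.08 in Ara-C+HS, 10.35, 10.08 and 10.24 in Ara-C, and 9.71, 9.96 and 9.59 in untreated cells. Its second probe ILMN_2286870 read 8.46, 8.22 and 8.22 in Ara-C+HS5, 8.0, 7.99 and 7.82 in Ara-C+HS, 8.41, 8.11 and 8.29 in Ara-C, and 7.57, 7.83 and 7.59 in untreated cells. On both probes the Ara-C arrays were all above the untreated ones, and CSNK1D rose with Ara-C by log2 differences of 0.47 (SE 0.11, adjusted p = 0.00271) and 0.61 (SE 0.12, adjusted p = 0.000741, limma).

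NKD2 encodes a protein that binds Dishevelled and restrains it. It read 10.50, 10.33 and 10.36 in Ara-C+HS5, 10.35, 10.08 and 10.29 in Ara-C+HS, 10.32, 10.27 and 10.21 in Ara-C, and 11.08, 11.24 and 10.98 in untreated cells. The 3 untreated arrays stood above all 9 others. NKD2 averaged 10.27 ± 0.05 in Ara-C and 11.10 ± 0.13 in untreated cells (SD, n = 3 each), a 1.78-fold fall (log2 difference -0.83, SE 0.10, adjusted p = 2.63e-05, limma). It fell in every comparison of a drug group with untreated cells, with log2 differences of -0.71 in Ara-C+HS5 and -0.86 in Ara-C+HS, comparisons that share their untreated arrays.

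AXIN1 encodes the scaffold of the destruction complex. It read 7.91, 7.81 and 7.91 in Ara-C+HS5, 8.04, 8.52 and 8.32 in Ara-C+HS, 7.96, 7.94 and 7.81 in Ara-C, and 8.23, 8.51 and 8.62 in untreated cells. The Ara-C+HS and untreated arrays overlapped, and both groups lay above all Ara-C and Ara-C+HS5 arrays. With Ara-C it was 1.47-fold lower (log2 difference -0.55, SE 0.13, adjusted p = 0.00342, limma). ZNRF3, a ubiquitin ligase that clears Frizzled from the membrane, read 5.91, 6.11 and 6.55 in Ara-C+HS5, 6.76, 7.24 and 6.83 in Ara-C+HS, 6.55, 6.37 and 5.87 in Ara-C, and 6.67, 7.05 and 7.07 in untreated cells. The same grouping of arrays was seen, at a level close to background. Its fall with Ara-C was 1.59-fold (log2 difference -0.67, SE 0.20, adjusted p = 0.0158, limma), and it missed the threshold without untreated array 2, untreated array 3 or Ara-C array 3.

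LRP5, the co-receptor, read 8.72, 8.99 and 8.64 in Ara-C+HS5, 8.97, 9.12 and 8.99 in Ara-C+HS, 8.74, 9.06 and 8.87 in Ara-C, and 9.36, 9.44 and 9.35 in untreated cells with its probe ILMN_1702775. All untreated arrays were above all others. The fall with Ara-C was 1.41-fold (log2 difference -0.49, SE 0.11, adjusted p = 0.00266, limma). The dim second probe ILMN_2075892, detected on 0 Ara-C+HS5, 1 Ara-C+HS, 1 Ara-C and 3 untreated arrays, differed by -0.33 with Ara-C and missed the threshold (adjusted p = 0.0542, limma). WNT16, a ligand known from pre-B leukaemia, read 6.09, 6.01 and 6.22 in Ara-C+HS5, 6.15, 6.18 and 6.47 in Ara-C+HS, 6.23, 5.96 and 6.22 in Ara-C, and 6.46, 6.35 and 6.66 in untreated cells. The Ara-C arrays lay below the untreated ones, while Ara-C+HS overlapped both. Its fall with Ara-C, 1.28-fold (log2 difference -0.36, SE 0.12, adjusted p = 0.0277, limma), was lost without untreated array 1, untreated array 3 or Ara-C array 2, and with the deposited values or without the filter.

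CTNNB1 itself did not pass with Ara-C on any of its 3 kept probes, with log2 differences of 0.26 (95% interval -0.12 to 0.64), 0.03 (-0.24 to 0.30) and 0.14 (-0.13 to 0.41) for ILMN_1651617, ILMN_1746396 and ILMN_1757350. Under the common-median scaling ILMN_1651617 did pass, at 0.54. The probes ILMN_1746396 and ILMN_1757350 lay between 7.88 and 8.49 on all arrays. GSK3B, the kinase that marks beta-catenin, differed by 0.24 with Ara-C (adjusted p = 0.0693, limma), and the Ara-C and untreated arrays did not overlap. GSK3B passed under the common-median scaling, at 0.49 (adjusted p = 0.00299, limma). Arrays of Ara-C and untreated cells did not overlap for 14 member probes, 35.9% of them, against 58.5% of all tested probes.

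**Figure D2:**
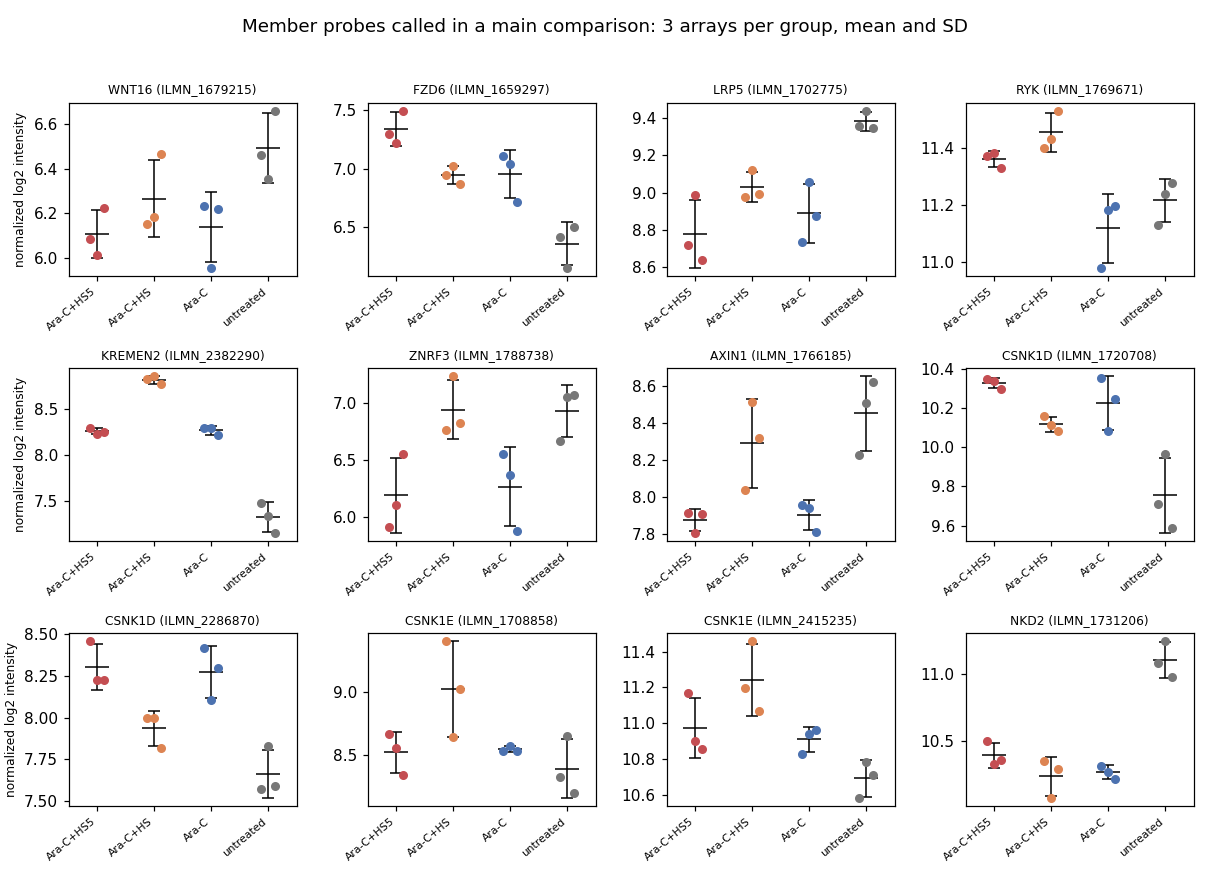
Normalized log2 intensity (vertical axes, each with its own range) of the 12 member probes that passed in Ara-C against untreated or in Ara-C+HS against Ara-C, with a point per array, the group mean as a line and SD as bars, 3 arrays per group. KREMEN2 has its highest arrays in Ara-C+HS and its lowest in untreated cells, NKD2 and LRP5 have their 3 highest arrays in untreated cells, and AXIN1 and ZNRF3 are low in both Ara-C+HS5 and Ara-C.

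Adding HS stroma to Ara-C was compared with Ara-C alone. KREMEN2, ZNRF3, AXIN1, CSNK1E and RYK rose, on 6 probes, and CSNK1D fell on 1 of its 2 probes. These 7 of 39 member probes (17.9%) compare with 39.1% of all tested probes, 19.9% higher and 19.2% lower. With the common-median scaling 4 passed, 2 higher and 2 lower, and without Ara-C array 1 or Ara-C array 3 only 2 passed. Arrays of the groups did not overlap for 11 probes, 28.2%, against 50.4% of all tested probes. The KREMEN2 call held in every alternative. The 95% intervals of 37 of the 39 differences lay within 2-fold in either direction.

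KREMEN2 averaged 8.82 ± 0.05 in Ara-C+HS and 8.27 ± 0.05 in Ara-C (SD, n = 3 each), 1.46-fold higher (log2 difference 0.55, SE 0.09, adjusted p = 0.000566, limma). Its untested second probe, detected on 2 Ara-C arrays and 0 Ara-C+HS arrays, went the other way, averaging 4.76 in Ara-C+HS and 5.65 in Ara-C. ZNRF3 was 1.60-fold higher at 6.94 ± 0.26 in Ara-C+HS and 6.26 ± 0.35 in Ara-C (log2 difference 0.68, SE 0.20, adjusted p = 0.0191, limma), a call lost without Ara-C array 3 or Ara-C+HS array 2. AXIN1 was 1.31-fold higher (log2 difference 0.39, SE 0.13, adjusted p = 0.0305, limma), and the call was lost without any 1 of the Ara-C arrays, Ara-C+HS array 2 or Ara-C+HS array 3. It was also lost under the common-median scaling, at 0.32 (adjusted p = 0.0761, limma). The ZNRF3 and AXIN1 calls were both lost without the filter on detection. For both genes the Ara-C+HS arrays lay above all Ara-C arrays. Compared with untreated cells, the Ara-C+HS difference was 0.01 for ZNRF3 (95% interval -0.43 to 0.45) and -0.16 for AXIN1 (-0.44 to 0.12), and neither passed.

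CSNK1E encodes casein kinase 1 epsilon, which like its delta relative acts on Dishevelled. Its probe ILMN_2415235 read 11.17, 10.90 and 10.85 in Ara-C+HS5, 11.19, 11.46 and 11.07 in Ara-C+HS, 10.83, 10.94 and 10.96 in Ara-C, and 10.58, 10.78 and 10.71 in untreated cells. Its second probe ILMN_1708858 read 8.67, 8.55 and 8.34 in Ara-C+HS5, 9.41, 8.64 and 9.03 in Ara-C+HS, 8.53, 8.57 and 8.53 in Ara-C, and 8.32, 8.65 and 8.19 in untreated cells. Both had all Ara-C+HS arrays above all Ara-C arrays, with wide spread in Ara-C+HS. CSNK1E rose with HS by 0.33 (SE 0.12, adjusted p = 0.0416) and 0.49 (SE 0.17, adjusted p = 0.0396, limma), and both calls were lost under the common-median scaling and without any 1 of the Ara-C arrays. Both were also lost without the filter on detection.

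RYK encodes a receptor tyrosine kinase-like protein that binds Wnt ligands. Its probe ILMN_1769671 read 11.37, 11.38 and 11.33 in Ara-C+HS5, 11.40, 11.43 and 11.53 in Ara-C+HS, 10.98, 11.18 and 11.19 in Ara-C, and 11.13, 11.24 and 11.28 in untreated cells. The Ara-C+HS arrays were the highest and the Ara-C arrays overlapped the untreated ones. It rose with HS by 0.34 (SE 0.09, adjusted p = 0.0106, limma), while the other RYK probes, ILMN_2363439 and ILMN_1658526, differed by 0.18 and 0.06 (adjusted p = 0.212 and 0.669, limma). The call was lost without Ara-C array 1 and under the common-median scaling. CSNK1D fell with HS on ILMN_2286870 by 0.33 on the log2 scale (adjusted p = 0.0348, limma), with Ara-C+HS arrays below all Ara-C arrays. The call was lost without Ara-C array 1 or 3 or Ara-C+HS array 2 or 3, and without the filter on detection. Its other probe differed by -0.11 (adjusted p = 0.443). GSK3B lay just outside the threshold, at -0.28 (adjusted p = 0.0502, limma), and inside it under the common-median scaling, at -0.35 (adjusted p = 0.0306).

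Adding HS5 stroma to Ara-C gave no member probe that passed against Ara-C alone. The count was 0 of 39 by limma, with 6 at an unadjusted p under 0.05, against 0.723% of all tested probes (0.455% higher, 0.268% lower). All 39 differences had 95% intervals within 2-fold in either direction, the outermost bounds being -0.92 and 0.78 on the log2 scale. For 6 probes, 15.4%, the arrays did not overlap, against 18.9% of all tested probes. Among them WNT3, a ligand of the beta-catenin branch, read 7.33, 7.05 and 7.28 in Ara-C+HS5 and 6.76, 6.93 and 6.66 in Ara-C, a difference of 0.44 (adjusted p = 0.174, limma). FZD6 differed by 0.38 (adjusted p = 0.223), PYGO2, a nuclear partner of beta-catenin, by -0.40 (adjusted p = 0.197), and RYK by 0.24 and 0.28 on a pair of its probes (adjusted p = 0.28 and 0.299). For KREMEN2 the Ara-C+HS5 difference from Ara-C was -0.01, with a 95% interval from -0.21 to 0.19. None of the 12 single-array omissions gave a call.

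**Figure D3:**
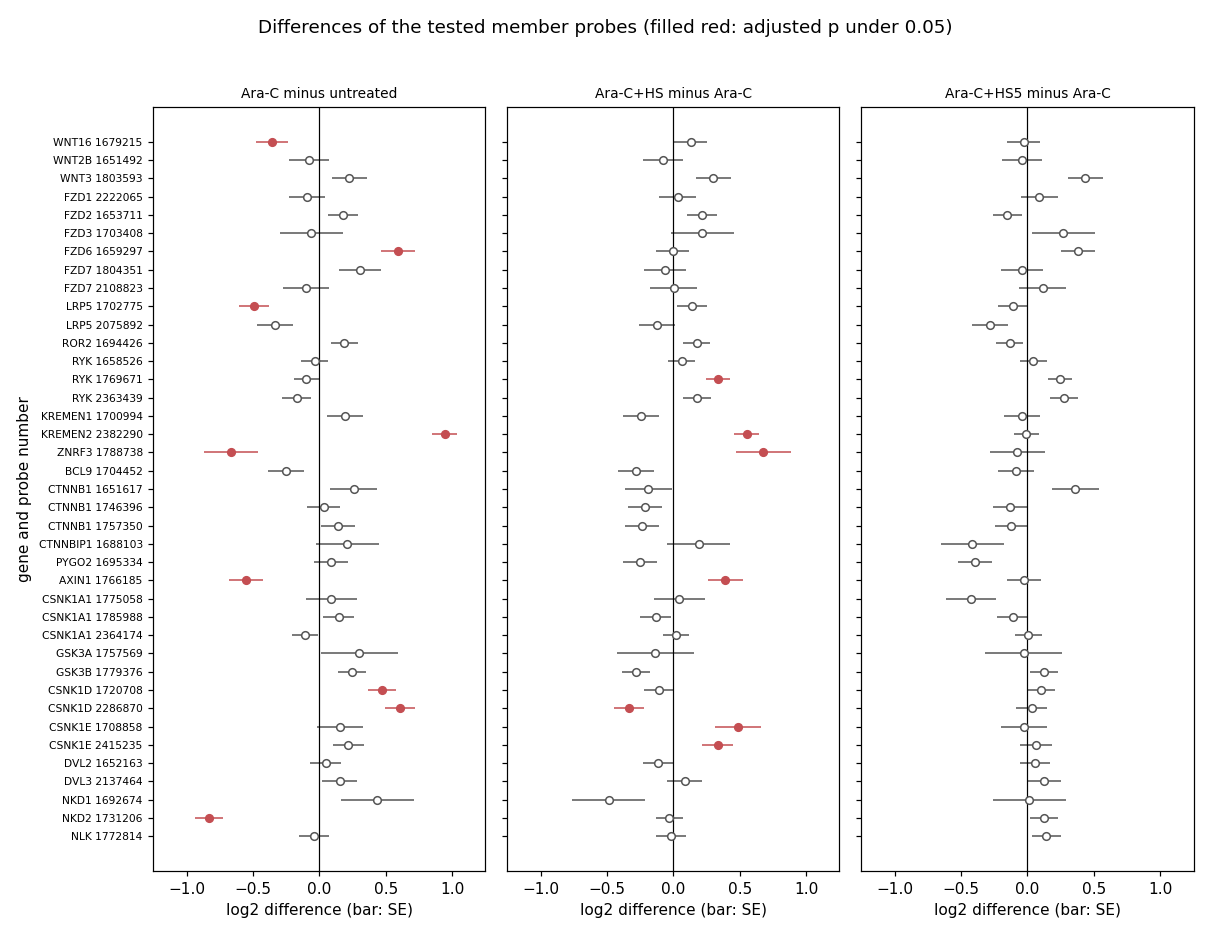
Log2 difference (horizontal axes, bar = SE) of the 39 tested member probes, in role order down the page, for Ara-C minus untreated, Ara-C+HS minus Ara-C and Ara-C+HS5 minus Ara-C. Filled red points passed at an adjusted p under 0.05, which is 9, 7 and 0 of the 39 probes, and the largest distances from 0 are KREMEN2 at 0.94 and NKD2 at -0.83 with Ara-C.

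The stromal cells were then compared directly, both under Ara-C, which tests the difference between their effects. FZD6, GSK3B, CSNK1D and CTNNB1 were higher with HS5, and ZNRF3, KREMEN2, CSNK1E, AXIN1, FZD2 and ROR2 lower, on 1 probe each. These 10 of 39 probes (4 higher and 6 lower, 25.6%) compare with 40.8% of all tested probes, 19.9% higher and 21.0% lower. With the common-median scaling 7 passed, 1 higher and 6 lower. For 13 probes, 33.3%, the arrays did not overlap, against 49.8% of all. KREMEN2 averaged 8.26 ± 0.03 in Ara-C+HS5 and 8.82 ± 0.05 in Ara-C+HS (SD, n = 3 each, log2 difference -0.56, adjusted p = 0.000448, limma). Its untested second probe, detected on no array of either group, went the other way, averaging 5.48 in Ara-C+HS5 and 4.76 in Ara-C+HS. ZNRF3 differed by -0.75 (adjusted p = 0.0102), and GSK3B, at 8.69 ± 0.08 in Ara-C+HS5 and 8.28 ± 0.16 in Ara-C+HS, by 0.40 (adjusted p = 0.00808, limma). These 3 calls held in every alternative, and each of the other 7 was lost in at least 1. The 3 probes of CTNNB1 disagreed: ILMN_1651617, at 6.74 ± 0.34 in Ara-C+HS5 and 6.19 ± 0.14 in Ara-C+HS, passed, and the other probes differed by 0.09 and 0.12 and did not.

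ROR2, a receptor for Wnt ligands outside the beta-catenin branch, averaged 8.21 ± 0.16 in Ara-C+HS5 and 8.52 ± 0.04 in Ara-C+HS (adjusted p = 0.0265, limma). FZD2 averaged 7.38 ± 0.19 in Ara-C+HS5 and 7.74 ± 0.15 in Ara-C+HS, with overlapping arrays (adjusted p = 0.0177, limma). CSNK1E and CSNK1D were each called on 1 of 2 probes.

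Against untreated cells, each stroma group with Ara-C called 13 of 39 member probes. For Ara-C+HS these were 9 higher and 4 lower, against 42.8% of all tested probes (20.8% higher, 22.0% lower). For Ara-C+HS5 they were 7 higher and 6 lower, against 54.2% of all (25.5% higher, 28.7% lower). Under the common-median scaling the counts were 12 higher and 1 lower for Ara-C+HS, and 10 higher and 5 lower for Ara-C+HS5. Arrays did not overlap for 14 probes in Ara-C+HS (35.9%, against 52.4% of all) and for 20 in Ara-C+HS5 (51.3%, against 61.3% of all). All 3 comparisons with untreated cells share the untreated arrays.

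KREMEN2 was 2.82-fold higher in Ara-C+HS than in untreated cells (log2 difference 1.49, SE 0.09, adjusted p = 1.64e-07, limma), and was the only member to reach 2-fold in the 6 comparisons under quantile normalization. In Ara-C+HS5 it was 1.91-fold higher. FZD6 was 1.96-fold higher in Ara-C+HS5 (log2 difference 0.97, adjusted p = 3.36e-05, limma) and higher in Ara-C+HS by 0.59 on the same scale. WNT3 averaged 7.22 ± 0.15 in Ara-C+HS5, 7.08 ± 0.24 in Ara-C+HS, 6.79 ± 0.14 in Ara-C and 6.56 ± 0.11 in untreated cells (SD, n = 3 each). It passed against untreated cells in Ara-C+HS5 (log2 difference 0.66) and Ara-C+HS (0.52), and missed in Ara-C (0.22, adjusted p = 0.175, limma). WNT3 passed in Ara-C as well under the common-median scaling, at 0.51 (adjusted p = 0.00333, limma).

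CSNK1D rose in both stroma groups on ILMN_1720708, by 0.57 in Ara-C+HS5 and 0.36 in Ara-C+HS, and on ILMN_2286870 it passed in Ara-C+HS5 at 0.64 and missed in Ara-C+HS at 0.27 (adjusted p = 0.0727, limma). Under the common-median scaling ILMN_2286870 passed in Ara-C+HS too, at 0.50, and the ILMN_1720708 call in Ara-C+HS was lost without untreated array 1 or 3. Other members passed in 1 stroma group only, and the direct test between these groups is the one given before. In Ara-C+HS, FZD2 rose by 0.39 and ROR2 by 0.36, and both CSNK1E probes by 0.64 and 0.55, while BCL9, the adaptor that links beta-catenin to PYGO proteins, fell by 0.53 on the log2 scale. Under the common-median scaling BCL9 was at -0.28 and missed the threshold (adjusted p = 0.212, limma), and FZD2 was at 0.63. The FZD2 call was lost without Ara-C+HS array 1. With that scaling Ara-C alone also passed against untreated cells for FZD2 (0.47), ROR2 (0.43) and CSNK1E ILMN_2415235 (0.41). Their adjusted p were 0.0108, 0.014 and 0.0123 (limma). The same CSNK1E probe then passed in Ara-C+HS5 too, at 0.35 (adjusted p = 0.0275, limma). RYK also passed in Ara-C+HS on 1 probe, at 0.24 (adjusted p = 0.0486, limma), a call lost in 11 of the 12 single-array omissions (adjusted p up to 0.154) and in 4 of 8 other alternatives, among them the common-median scaling and the replicate block. In Ara-C+HS5, GSK3B rose by 0.37 and CTNNB1 by 0.62 on ILMN_1651617, while AXIN1 fell by 0.58, ZNRF3 by 0.74 and WNT16 by 0.38 on the log2 scale. With the deposited values ZNRF3 was at -0.49 and CTNNB1 at 0.41, and both still passed. WNT16 was at -0.19 under the common-median scaling, and its call was lost there and without untreated array 3 or Ara-C+HS5 array 2. LRP5 fell in both, by 0.60 in Ara-C+HS5 and 0.35 in Ara-C+HS on ILMN_1702775. The Ara-C+HS call was lost under the common-median scaling (-0.21, adjusted p = 0.238) and without untreated array 2, Ara-C+HS array 1 or Ara-C+HS array 3 (adjusted p up to 0.0683, limma). On the dim LRP5 probe ILMN_2075892, not detected on any Ara-C+HS5 array, the level in Ara-C+HS5 was at least 1.12-fold lower than in untreated cells. That bound sets the untreated mean against the lowest detected signal of the Ara-C+HS5 arrays. This probe passed the filter through its 3 untreated detections, with 1 each in Ara-C and Ara-C+HS. Its calls against untreated cells, counted above for both stroma groups, therefore add no support to the fall of LRP5.

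**Figure D4:**
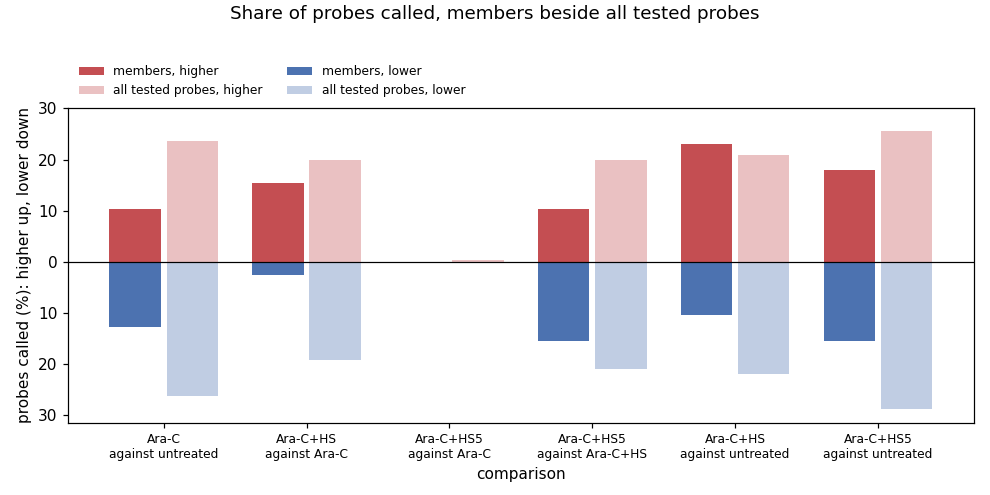
Percentage of probes that passed at an adjusted p under 0.05 in each of the 6 comparisons, higher drawn upwards and lower downwards, for the 39 member probes (dark) beside all 14939 tested probes (pale). Members are below all tested probes in both directions in 5 of the 6 comparisons, and in Ara-C+HS against untreated they are at 23.1% higher against 20.8% of all.

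Over the 6 comparisons, 19 of the 39 probes and 16 of the 29 genes passed at least once, with 52 calls in all. The share of all tested probes that passed at least once was not counted, but Ara-C+HS5 against untreated alone called 54.2% of them. The kept members that never passed were WNT2B (5.72 to 6.30 over the 12 arrays), FZD1 (5.38 to 5.86), FZD3 (5.93 to 7.10), both FZD7 probes (6.54 to 7.51), KREMEN1 (6.04 to 6.64), CTNNBIP1, an inhibitor of the binding of beta-catenin to TCF factors (6.01 to 7.43), PYGO2 (5.85 to 6.56), the 3 CSNK1A1 probes (5.34 to 9.42), GSK3A (5.07 to 6.26), DVL2 (8.13 to 8.58), DVL3 (7.70 to 8.23), NKD1 (4.67 to 5.95) and NLK (8.70 to 9.17). DVL2, DVL3 and NLK each varied by less than 1 log2 unit over all arrays.

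Genes of the pathway outside the membership were taken from 2 lists and read with 1 probe per gene, the brightest that passed the filter. Of 86 further signalling genes on the array 59 were measured: 14 were higher and 11 lower with Ara-C against untreated, 10 higher and 5 lower with HS against Ara-C, and 0 either way with HS5 against Ara-C. Under the common-median scaling these counts were 19 and 4, 5 and 4, and 0. Of all tested probes under quantile normalization, 23.7% were higher and 26.2% lower with Ara-C, and 19.9% and 19.2% with HS against Ara-C. With HS5 against Ara-C, the shares of all tested probes were 0.455% and 0.268%. With Ara-C, DACT3, a Dishevelled antagonist, averaged 9.67 ± 0.09 in Ara-C and 7.69 ± 0.04 in untreated cells, 3.96-fold higher (adjusted p = 1.85e-08, limma). PRICKLE1, of the planar polarity branch, was at 7.0 ± 0.31 in Ara-C and 5.40 ± 0.47 in untreated cells, where 1 of 3 arrays detected it, and CHD8, a chromatin factor that binds beta-catenin, was 1.55-fold higher. With HS, CSNK2A2, a casein kinase 2 subunit, was at 10.72 ± 0.09 in Ara-C+HS and 9.58 ± 0.13 in Ara-C, 2.21-fold higher (adjusted p = 8.7e-06, limma). PPP3CB, a calcineurin subunit, was 1.73-fold higher and the GTPase RAC1 was 1.64-fold lower. With HS5, the smallest adjusted p belonged to PPP3CA (0.241), MAP3K7 (0.267) and TNIK (0.296), with differences of 0.32, 0.28 and -0.27.

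Of 34 genes known as targets of beta-catenin and TCF/LEF, 17 were measured. With Ara-C 8 were higher and 4 lower, with HS against Ara-C 3 were higher and 6 lower, and with HS5 against Ara-C 0 passed. Under the common-median scaling the counts were 11 and 3, 3 and 6, and 0. The shares of all tested probes are those given for the signalling genes. JUN was at 9.23 ± 0.10 in Ara-C and 7.13 ± 0.23 in untreated cells, 4.27-fold higher (adjusted p = 2.37e-08, limma), and CCND1, cyclin D1, was 3.29-fold higher. NRCAM, an adhesion protein, was at 7.44 ± 0.07 in Ara-C and on no untreated array, at least 3.19-fold higher. LEF1, both a target and a nuclear factor of the pathway, was at 7.22 ± 0.25 in Ara-C and 8.85 ± 0.06 in untreated cells, 3.08-fold lower, and MYC was 2.57-fold lower. With HS added, LEF1 was at 8.82 ± 0.09 in Ara-C+HS and 7.22 ± 0.25 in Ara-C, 3.01-fold higher (adjusted p = 8.54e-07, limma), MYC was 1.67-fold higher, JUN was 2.62-fold lower and NRCAM was on no Ara-C+HS array, at least 3.59-fold lower. NRCAM, on no untreated or Ara-C+HS array, passed the filter only through the other groups. Its calls in these comparisons, counted above, therefore add no support. With HS5, CD44, LEF1 and BIRC5 differed by -0.26, -0.34 and -0.28 (adjusted p = 0.235, 0.249 and 0.28, limma). The listed targets thus moved in both directions in Ara-C against untreated and in Ara-C+HS against Ara-C. Whether their shares differed from those of all tested probes was not tested.

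Markers of cell type moved in the same comparisons, for which the shares of all tested probes called are given above. Of 16 B-lineage genes on the array 11 were measured, with 1 higher and 8 lower in Ara-C against untreated, 10 higher and 0 lower in Ara-C+HS against Ara-C, and 0 higher and 2 lower in Ara-C+HS5 against Ara-C. Their summed normalized intensity was 3433 to 3947 in Ara-C+HS5, 7139 to 7351 in Ara-C+HS, 4431 to 4681 in Ara-C and 7138 to 7558 in untreated cells, high in Ara-C+HS and untreated cells as AXIN1 and ZNRF3 were. EBF1 was on no Ara-C+HS5 array, and PAX5 was on none in any group. MME was on 3 Ara-C+HS and 3 untreated arrays, POU2AF1 on 2 and 2, and both on no other array. These 2 genes passed the filter only through the groups where they were high. Their part in the B-lineage counts therefore adds no support. The summed intensity of the 28 stroma genes was 2409 to 2708 in Ara-C+HS5, 2576 to 2648 in Ara-C+HS, 2626 to 2696 in Ara-C and 1337 to 1439 in untreated cells, as high in Ara-C without stroma as with it. Most of that difference from untreated cells was 1 gene, ACTA2, at 1370 to 1582 in Ara-C+HS5, 1508 to 1556 in Ara-C+HS, 1538 to 1641 in Ara-C and 451 to 497 in untreated cells. The other genes, 21 of them on no array, summed to 1039 to 1126 in Ara-C+HS5, 1068 to 1100.2 in Ara-C+HS, 1019 to 1088 in Ara-C and 887 to 959 in untreated cells. That of the 11 granulocyte genes was 41180 to 44290 in Ara-C+HS5, 49703 to 53157 in Ara-C+HS, 44399 to 48498 in Ara-C and 58284 to 64414 in untreated cells. MPO made up most of each of these sums, and by gene 1 was higher and 4 lower in Ara-C against untreated, 5 higher and 2 lower in Ara-C+HS against Ara-C, 0 either way in Ara-C+HS5 against Ara-C, and 5 higher and 3 lower in Ara-C+HS against untreated. ELA2, a granulocyte gene, was on 2 Ara-C+HS arrays, 1 Ara-C+HS5 array and no other. It passed the filter only through the stroma groups, so its part in these counts adds no support. The summed intensity of the 9 T and NK cell genes was 7153 to 7920 in Ara-C+HS5 and 3841 to 4763 in Ara-C+HS. It was 6117 to 6861 in Ara-C and 2775 to 2908 in untreated cells. The part of these shifts in the Wnt gene results was not tested.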

How the data were processed

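Biotin-labelled cRNA of 12 samples was hybridised to 1-colour HumanHT-12 v3 arrays. The authors deposited, per the file headers, a signal intensity and a detection p-value for each probe of each array. They also deposited a table of log2 values, which matched log2 quantile-normalized signals without background correction to within 0.00594, and the submitters' processing notes name R 2.9.2. From the deposited intensity values, background was corrected with normexp using negative controls inferred from the detection p-values (limma 3.58.1, neqc, offset 16, R 4.3.3), followed by quantile normalization and log2. Probes with a detection p under 0.01 on at least 3 of 12 arrays were kept (14939). One linear model with a mean per group (8 residual degrees of freedom) and limma's empirical Bayes test gave 6 comparisons, each adjusted by Benjamini-Hochberg over all kept probes. Each probe was tested separately. The number of arrays limits the precision.

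On simulated data this procedure recovered 31.3% of 1.41-fold, 85.1% of 2-fold and 98.5% of 4-fold changes for Ara-C against untreated, and 3.38% of its calls were false. For Ara-C+HS5 against Ara-C it recovered 43.3%, 89.6% and 100%, with 6.63% false. In each simulated comparison only 66 or 67 of 14939 probes changed at each size, with normal noise around the untreated means. In the data 49.9% of the tested probes passed for Ara-C against untreated. These rates therefore describe the simulated setting only, and each simulated comparison was a separate random draw.

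Named are members with a call in any comparison, with values per array for those called in Ara-C against untreated or in either stroma group against Ara-C, kept members without a call by range, undetected members by symbol, every detected WNT and FZD gene, CTNNB1 and AXIN2. Of each pathway list, the 3 genes with the smallest adjusted p per such comparison are named, with LEF1 and MYC. The members and lists were chosen with earlier results of these data known. Symbols are those of the array's design, and all 66 matched current RefSeq symbols. Probe positions are not used here.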

Additional observations from a re-analysis of the deposited data

Results flagged for a closer look

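For 10 member probes the effect of HS5 stroma differed from that of HS stroma under Ara-C in the direct test (Ara-C+HS5 minus Ara-C+HS, limma, adjusted over all tested probes), against 40.8% of all tested probes. The log2 differences were -0.37 for FZD2 (adjusted p = 0.0177), 0.39 for FZD6 (0.0272), -0.31 for ROR2 (0.0265), -0.56 for KREMEN2 (0.000448) and -0.75 for ZNRF3 (0.0102). They were 0.55 for CTNNB1 on ILMN_1651617 (adjusted p = 0.024), -0.42 for AXIN1 (0.0213), 0.40 for GSK3B (0.00808), 0.37 for CSNK1D on ILMN_2286870 (0.0218) and -0.51 for CSNK1E on ILMN_1708858 (0.0304). For 8 of the 10 the arrays of the stroma groups did not overlap, FZD2 and CSNK1E being the exceptions, against 49.8% of all tested probes. The 10 were picked by a test on these same arrays, so the lack of overlap adds no support.

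Among member probes under the minimum for a test, 5 were detected with the drug and on no untreated array. AXIN2 passed on 2 arrays, both Ara-C+HS, at 5.58 and 5.91, while the third Ara-C+HS array read 5.39, and the other groups lay at 4.85 to 5.38 in Ara-C+HS5, 5.30 to 5.47 in Ara-C and 5.17 to 5.47 in untreated cells. The 5.58 came from Ara-C+HS array 1, which had the most detected probes (14898) and the lowest detected signal, 5.41. On every other array the lowest detected signal was 5.61 or higher. The second KREMEN2 probe passed on 2 Ara-C arrays. LRP6 passed on 1 Ara-C+HS array, WNT10B on 1 Ara-C+HS5 array and the DVL1 probe ILMN_1678564 on 1 Ara-C+HS5 array, and another DVL1 probe passed on 1 untreated array. Of all 48800 probes, 1386 were detected on 1 or 2 arrays. How many of those 1386 were also on drug arrays only was not counted, and just 3 of the 12 arrays were untreated. Groups of 3 arrays were too small to test for outlying arrays.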

How the results depend on the processing

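Of the 52 calls over 6 comparisons, 31 were kept when each array was left out in turn, 31 in all other alternatives in which the probe was tested, and 28 in all of them, none changed sign, and 14 further results passed in at least 1 alternative. Counts of member probes called moved by over 1.5 times in 3 cases: to 16 for Ara-C against untreated and to 4 for Ara-C+HS against Ara-C under the common-median scaling, and to 3 for Ara-C+HS against Ara-C without the filter on dim probes, where 48800 probes share the adjustment. Leaving out each array in turn gave 8 to 10 calls for Ara-C against untreated, 2 to 8 for Ara-C+HS against Ara-C, 0 to 0 for Ara-C+HS5 against Ara-C, 6 to 11 for Ara-C+HS5 against Ara-C+HS, 10 to 13 for Ara-C+HS and 12 to 15 for Ara-C+HS5 against untreated cells. The count of 6 came without any 1 of the Ara-C+HS arrays or without Ara-C+HS5 array 3. Over all tested probes, the 108 calls for Ara-C+HS5 against Ara-C became 236 with the deposited log2 values, 215 with an offset of 50, 71 without the filter, 65 with only the 2 groups compared and 67 with the replicate block, and 30 (without Ara-C array 2) to 114 with single arrays left out. Beyond the alternative's own construction, the cause was not tested. The filter leaves probes near background in the test, and below it only bounds exist.

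The samples share replicate numbers only by name: deviations of same-numbered arrays from their group means correlated at -0.04 to 0.03, and 3 of 12 arrays correlated best with their own number. With the replicate number as a block, the member counts were 10 for Ara-C against untreated, 6 for Ara-C+HS against Ara-C, 0 for Ara-C+HS5 against Ara-C, 10 for Ara-C+HS5 against Ara-C+HS, 12 for Ara-C+HS and 13 for Ara-C+HS5 against untreated cells. The counts of the pathway and marker lists under the common-median scaling were chosen after seeing the data.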
